A study of Penicillium oxalicum with 10 samples.

Results

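Transcripts of 4 of the 9859 genes listed for the mould Penicillium oxalicum were followed. By annotation they are 2 peptide transporters (PDE_06899 and PDE_05534) and 2 amino acid transporters (PDE_00845 and PDE_00830), and uptake itself was not measured. They were taken by locus number, and were chosen on their RPKM levels and differences from wild type in these same libraries, so their levels are given below as a description, with no test. The annotation places both peptide transporters in the proton-dependent oligopeptide transporter (POT) family and gives both amino acid transporters the name yeast amino acid transporter, while the product column calls all 4 hypothetical proteins. By name, the annotation holds 3 peptide transporters and 17 amino acid transporters in all. The coding lengths of PDE_06899, PDE_05534, PDE_00845 and PDE_00830 are 1857, 1893, 1764 and 1662 bases.

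Filamentous fungi digest protein outside the cell with secreted peptidases and take up the products through the plasma membrane. POT-family proteins, known in budding yeast as Ptr2, carry short peptides together with protons. Permeases of the yeast amino acid transporter family carry free amino acids, some with broad and some with narrow substrate ranges. In budding yeast both kinds are controlled at the transcript level by the nitrogen source and by external amino acids or peptides.

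The study measured messenger RNA of mycelia by RNA sequencing. One strain, M12, is the wild type, and 9 others are deletion strains that lack, by their labels, swi6, stuA, abaA, wetA or 1 of the genes flbE, flbD, flbC, flbB and flbA. In related moulds swi6 acts in chromatin and the others regulate sporulation. There are 10 libraries, 1 per strain. All strains were pre-grown from conidia for 20 h at 30 °C in a modified Czapek medium with 2% glucose and then kept in new medium for 48 h. With 1 library per genotype, no value below has a replicate error, and no p-value can be given. Intervals in parentheses are 95% counting intervals and do not cover the spread between cultures. In bulk RNA, fewer cells of a type and less RNA per cell cannot be told apart.

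Read totals ran from 3.10 megareads, in the flbA deletion library, to 7.60 megareads, under the label flbD deletion, and 330 to 946 genes had 0 reads. The gene paired by protein family with stuA (PDE_04095, named SOK2) and that paired with swi6 (PDE_08896, named chromobox protein 1) each had 1 read in the matching deletion library. The gene named FlbD (PDE_03008) had 327 RPKM (the read count divided by coding length in kilobases and by megareads of the library) in the library labelled flbD deletion against 341 RPKM in wild type. The TEA-family gene paired with abaA (PDE_02932) had 59.1 RPKM in the library labelled abaA deletion against 28.5 RPKM in wild type. The first of these 2 libraries thus goes against its label, and so does the second if that pairing holds, and both are called by their labels. The pairings by family were made with the values known and may not be the deleted genes. Deletion of the other 5 genes could not be read by name.

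The POT transporter PDE_06899 was among the abundant transcripts of 7 libraries and close to absent in 2. Its level was 657 RPKM in wild type, 1424 RPKM in the flbB, 2098 RPKM in the flbE, 1959.6 RPKM in the wetA and 1852 RPKM in the stuA deletion library. The libraries labelled flbD and abaA deletion held 2096 and 1721 RPKM. The swi6, flbC and flbA deletion libraries held 2.69, 3.15 and 23.1 RPKM. Thus 6 deletion libraries lay above wild type and 3 below it.

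The low values of PDE_06899 rest on 133 reads in the flbA, 26 reads in the flbC and 28 reads in the swi6 deletion library, against 6284 reads in wild type. In the flbC and swi6 deletion libraries the reads covered 42.4% and 45.8% of its length, and in the other 8 they covered 96.5% or more. Relative to wild type the transcript was lower by 208.5-fold in flbC (142 to 319), by 244-fold in swi6 (169 to 368) and by 28.5-fold in flbA (24.0 to 34.1), the last a value that depends on scaling (given under the dependence on processing). The flbC and swi6 deletion libraries did not differ from each other beyond counting error, with a ratio of 1.17 (0.660 to 2.07). The increases were smaller, from 2.17-fold (2.11 to 2.23) in the flbB to 3.19-fold (3.11 to 3.28) in the flbE deletion library. At the top of the order, the flbE library and the library labelled flbD deletion were within counting error of each other (interval of the ratio 0.984 to 1.02), though not with median-of-ratios scaling (1.16, 1.14 to 1.18). By level, PDE_06899 ranked between 46 and 74 among all genes in the 6 libraries above wild type and 156 in wild type itself, but 3782 with flbA, 8489 with flbC and 8357 with swi6 deleted.

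The second POT transporter, PDE_05534, was high where PDE_06899 was low. Its levels were 827 RPKM with swi6 deleted, 309.9 RPKM with flbC deleted, 257 RPKM with flbA deleted and 74.1 RPKM with stuA deleted, against 125 RPKM in wild type. In the library labelled flbD deletion it had 14.1 RPKM. In the flbE, flbB and wetA deletion libraries and the library labelled abaA deletion it had 2.11, 1.76, 0.799 and 1.20 RPKM, from 29, 23, 10 and 16 reads. PDE_05534 was thus above wild type in the flbA, flbC and swi6 deletion libraries. The stuA library and the library labelled flbD deletion lay between wild type and the last 4, and were themselves 5.25-fold apart (4.51 to 6.14). The last 4 were lowest, at 10 to 29 reads.

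Against wild type, PDE_05534 was 6.63-fold higher (6.25 to 7.05) in the swi6, 2.48-fold higher (2.32 to 2.66) in the flbC and 2.06-fold higher (1.91 to 2.23) in the flbA deletion library. The flbA value became 3.41-fold with median-of-ratios and 3.14-fold with TMM (trimmed mean of M-values) scaling, which put flbA above flbC in the order for this gene. It was 1.68-fold lower (1.55 to 1.83) in the stuA deletion library and 8.84-fold lower (7.61 to 10.3) in the library labelled flbD deletion. In the flbE deletion library it was 59.1-fold lower (41.0 to 88.7), and in the flbB deletion library 70.7-fold lower (46.9 to 112). It was 104-fold lower (63.7 to 182) in the library labelled abaA deletion and 156-fold lower (84.6 to 326) in the wetA deletion library. Among the 4 lowest, each neighbouring pair was within counting error, but the wetA deletion library was below those of flbE (2.64-fold, 1.25 to 6.07) and flbB (2.21-fold, 1.01 to 5.19). Between the flbC and swi6 deletion libraries, which had like amounts of PDE_06899, PDE_05534 was 2.67-fold higher (2.55 to 2.79) in the latter.

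**Figure D1:**
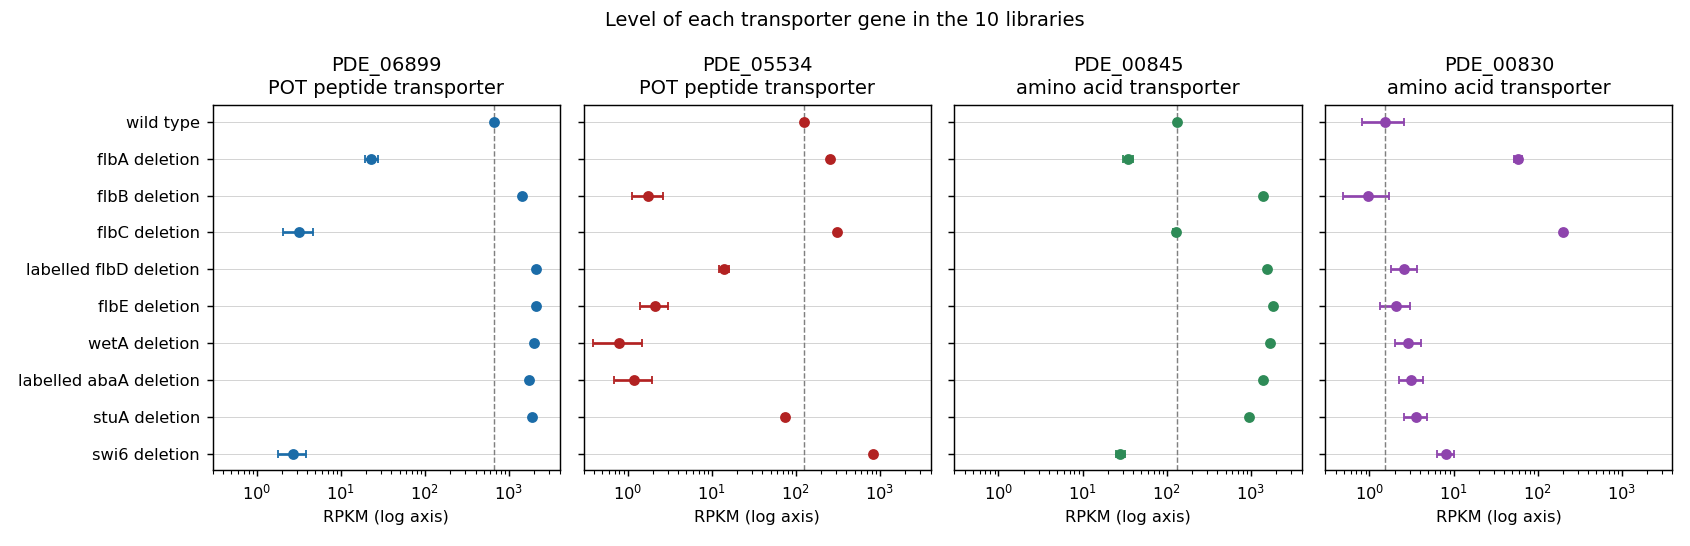
Level of each transporter gene (x axis, RPKM, log scale) in each of the 10 libraries (y axis, 1 library per genotype). Points are the deposited values, horizontal bars are exact Poisson 95% counting intervals, and the dashed line marks wild type. PDE_06899 and PDE_00845 are lowest in the swi6 deletion library (2.69 and 28.1 RPKM), where PDE_05534 is highest (827 RPKM), and PDE_00830 is highest in the flbC deletion library (198 RPKM).

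The ratio of the 2 POT transcripts within a library does not depend on how libraries are scaled. Per base of coding length, PDE_06899 exceeded PDE_05534 by 5.27-fold (4.95 to 5.61) in wild type and by 25.0-fold (23.5 to 26.7) in the stuA deletion library. The excess was 149-fold (129 to 171) in the library labelled flbD deletion, 808-fold (538 to 1275) in the flbB, 995-fold (692 to 1486) in the flbE and 2453-fold (1334 to 5116) in the wetA deletion library, and 1433-fold (882 to 2507) in the library labelled abaA deletion. In the remaining 3 libraries the order was inverted. There PDE_05534 exceeded PDE_06899 by 11.1-fold (9.33 to 13.4) in the flbA, 98.4-fold (67.0 to 151) in the flbC and 308-fold (213 to 463) in the swi6 deletion library.

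**Figure D2:**
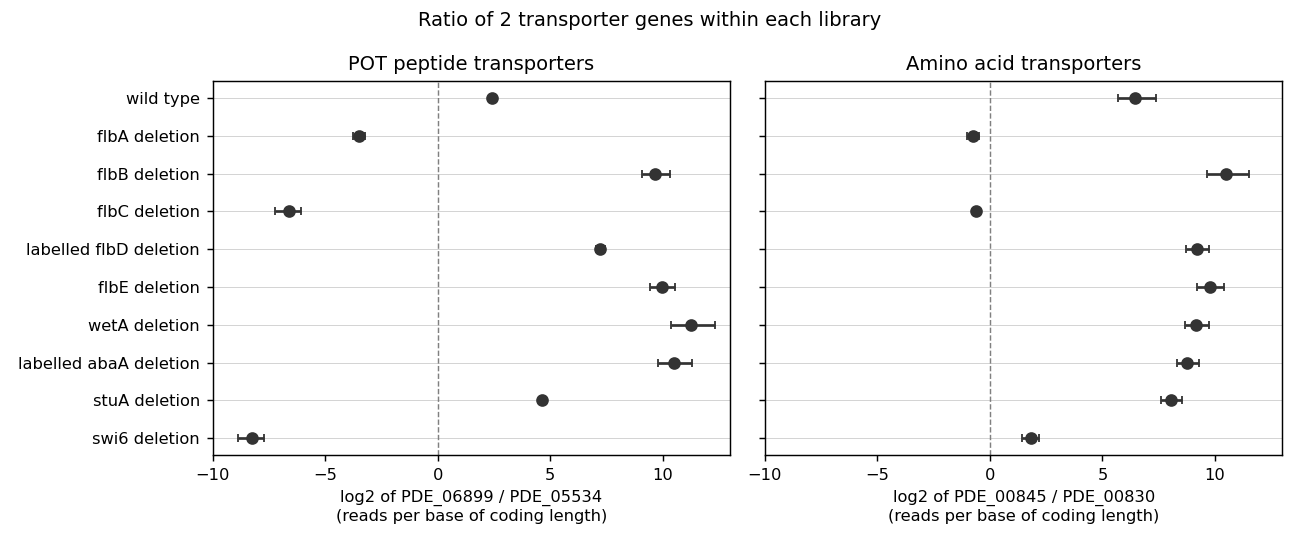
Log2 ratio of reads per base between the 2 POT transporters (left panel, PDE_06899 over PDE_05534) and between the 2 amino acid transporters (right panel, PDE_00845 over PDE_00830) within each library. Bars are exact 95% counting intervals and the dashed line marks equal levels. The left ratio falls below equality in the flbA, flbC and swi6 deletion libraries, and the right one in the flbA and flbC deletion libraries.

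The amino acid transporter PDE_00845 was high in the same 6 libraries that were above wild type for PDE_06899. Wild type held 133 RPKM, while deletion of flbE, wetA, flbB and stuA went with 1825.5, 1672, 1391 and 942 RPKM. The libraries labelled flbD and abaA deletion had 1542 and 1381 RPKM. In the flbC deletion library it stood at 128 RPKM, and in the flbA and swi6 deletion libraries at 34.9 and 28.1 RPKM. The 6 high libraries lay 7.07-fold (6.66 to 7.51, stuA) to 13.7-fold (12.9 to 14.5, flbE) above wild type.

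PDE_00845 was lower than wild type by 3.82-fold in flbA (3.28 to 4.47) and by 4.74-fold in swi6 (4.16 to 5.42). The flbA value became 2.31-fold with median-of-ratios and 2.51-fold with TMM scaling. In the flbC deletion library it did not differ from wild type beyond counting error (ratio 0.958, 0.880 to 1.04; with median-of-ratios scaling 0.892, 0.819 to 0.970), whereas PDE_06899 was close to absent there. The flbC and swi6 deletion libraries thus separated on this gene, with 4.54-fold more (3.98 to 5.21) in the flbC deletion library. In the order of levels the flbB library and the library labelled abaA deletion were within counting error of each other (ratio 1.01, 0.986 to 1.03), and with median-of-ratios scaling flbB was above it (1.35, 1.32 to 1.38). Within the 6 high libraries, PDE_06899 exceeded PDE_00845 per base by at most 1.97-fold (1.92 to 2.01, stuA), against 4.93-fold (4.63 to 5.25) in wild type. The order was inverted in 3 libraries, where PDE_00845 exceeded PDE_06899 by 1.51-fold (1.21 to 1.90) with flbA, 40.5-fold (27.5 to 62.4) with flbC and 10.5-fold (7.07 to 16.0) with swi6 deleted. PDE_00845 ranked between 56 and 116 among all genes in the 6 high libraries and 1104 in wild type.

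The amino acid transporter PDE_00830 was rare in 7 libraries, wild type included. The flbC deletion library held 198 RPKM (1460 reads), that of flbA 58.9 RPKM (304 reads) and that of swi6 8.04 RPKM (75 reads). Wild type had 1.52 RPKM from 13 reads, and the flbB, flbE, wetA and stuA deletion libraries had 0.960, 2.07, 2.91 and 3.56 RPKM. The libraries labelled flbD and abaA deletion had 2.61 and 3.16 RPKM. The 3 libraries with most PDE_00830 are the 3 with least PDE_06899 and with most PDE_05534. PDE_05534 was highest in the swi6 and PDE_00830 in the flbC deletion library.

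Relative to wild type, PDE_00830 was higher by 130.2-fold in flbC (75.9 to 245), by 38.8-fold in flbA (22.4 to 73.7) and by 5.30-fold in swi6 (2.92 to 10.4). The wide intervals follow from the 13 reads of wild type. Directly compared, the flbC deletion library had 3.35-fold more (2.96 to 3.81) than the flbA and 24.6-fold more (19.5 to 31.4) than the swi6 deletion library. The first of these became 1.89-fold with median-of-ratios and 2.00-fold with TMM scaling, and the 38.8-fold excess of flbA over wild type became 64.2-fold and 59.2-fold. Below the swi6 deletion library, each neighbouring pair in the order from stuA down to flbB was within counting error, although stuA was above flbB by 3.70-fold (1.87 to 7.97), and the stuA library (2.34-fold, 1.23 to 4.75) and the library labelled abaA deletion (2.08-fold, 1.08 to 4.27) were above wild type. Reads covered 99.9% of the coding length in the flbC, 99.7% in the flbA and 89.6% in the swi6 deletion library, and 28.2% to 74.1% elsewhere. Per base, PDE_00845 exceeded PDE_00830 by 87.8-fold (51.1 to 165) in wild type and by 265-fold (196 to 368) in the stuA to 1448-fold (809 to 2902) in the flbB deletion library. The excess shrank to 3.49-fold (2.70 to 4.57) in the swi6 deletion library, and PDE_00830 was the higher one by 1.69-fold (1.41 to 2.04) in the flbA and 1.55-fold (1.43 to 1.68) in the flbC deletion library.

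All 9 comparisons share the wild-type library. Differences were also taken as log2(RPKM + 1) for the 9134 genes with a mean of at least 1 RPKM over all libraries, which include the 4 transporters, and a gene was counted when at least 2-fold apart. PDE_06899 and PDE_00845 were counted as lower and PDE_05534 and PDE_00830 as higher in both the flbA and the swi6 deletion library. Of all genes tested, 37.4% were lower and 9.80% higher in the flbA deletion library, and 11.9% were lower and 11.0% higher in the swi6 deletion library. In the flbC deletion library PDE_06899 was lower and PDE_05534 and PDE_00830 higher, against 8.85% lower and 14.6% higher of all genes. In the flbB, flbE and wetA deletion libraries and in those labelled flbD and abaA deletion, PDE_05534 was lower and PDE_06899 and PDE_00845 higher.

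The background in these 5 was 23.0% lower and 12% higher for flbB, 21.2% and 10.9% for flbE, 20.9% and 13.8% for wetA, 12.7% and 11.7% for the label flbD, and 12.3% and 15.2% for the label abaA. In the stuA deletion library PDE_06899 and PDE_00845 were higher and no member was lower, against 13.3% and 14.6% of all genes. Without the libraries labelled flbD and abaA deletion, PDE_06899 and PDE_00845 were each higher in 4 of 7 libraries and PDE_05534 was lower in 3 of 7. As these contrasts were known when the genes were chosen, nothing is read from the members' counts. The median difference of all tested genes was -0.64 in the flbA, -0.40 in the flbB and -0.40 in the flbE deletion library, and between -0.26 and 0.12 in the other 6. In the flbA deletion library 27.9% of reads came from 1 gene, PDE_06605, against 7.73% in wild type, and without the most abundant gene of each library the flbA median was -0.32.

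Over the 10 libraries the highest level was 780.4-fold the lowest for PDE_06899, 1035-fold for PDE_05534, 65.0-fold for PDE_00845 and 206-fold for PDE_00830. On the log2(RPKM + 1) scale the ranges of levels were 9.15, 8.85, 5.97 and 6.66, beside a median range of 1.88 over all tested genes, and 43, 56, 412 and 289 genes had a larger range. Wide ranges follow from the choice of these genes on their levels and differences, so nothing is read from these ranks.

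Other transporters were taken by annotation name. The third POT gene, PDE_05978, reached 265 RPKM in swi6 and 146 RPKM in flbA, stood at 49.9 RPKM in wild type, and was at 19.3 to 64.1 RPKM in the others. It was at least 2-fold higher with flbA or swi6 deleted, and at least 2-fold lower in the library labelled flbD deletion and in that of flbB. With TMM or median-of-ratios scaling the count of 2 POT genes lower in the flbB library became 1. Summed over the 3 POT genes, levels were 832 RPKM for wild type, 1095 RPKM for swi6, 426 RPKM for flbA, 377 RPKM for flbC, and 1447 to 2129.8 RPKM in the other 6. PDE_06899 made up 79.0% of that sum in wild type and 93.2% to 98.5% in those 6. PDE_05534 made up 60.4% in the flbA, 82.2% in the flbC and 75.6% in the swi6 deletion library. The highest POT transcript thus changed from one gene to the other, while the sum ranged from 377 to 2129.8 RPKM.

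All 17 amino acid transporters passed the filter on low values. Leaving out both members, 15 remain, of which 6 were lower and 4 higher in the flbA, 2 and 4 in the flbB, 1 and 4 in the flbC, and 1 and 2 in the swi6 deletion library. None of these 15 was lower in the other 5, and 3 were higher for flbE, 4 for wetA, 3 for stuA, 4 for the label flbD and 5 for the label abaA. The flbA split of these 15 depends on scaling, with fewer lower and more higher under median-of-ratios. Of all genes tested, 12.3% to 21.2% were lower and 10.9% to 15.2% higher in those 5. In the flbA, flbB, flbC and swi6 deletion libraries, 8.85% to 37.4% were lower and 9.80% to 14.6% higher. The list's median difference, members included, was -0.24 in the flbA deletion library beside -0.64 for all genes, and from -0.15 to 0.69 elsewhere beside -0.40 to 0.12. PDE_04432, next to PDE_00845 in mean RPKM, stood at 636 RPKM in wild type and was low in the flbA and flbC deletion libraries (50.9 and 63.5 RPKM), with 285 RPKM where swi6 was deleted and 349 to 663 RPKM in the remaining deletion libraries. PDE_09143, the third, went from 30.8 RPKM in wild type to between 110.1 and 269.5 RPKM across all 9 deletion libraries. PDE_06018, named here after its values were seen, ran from 1.57 RPKM in the flbA to 325 RPKM in the flbC deletion library. PDE_00845 was the highest of the 17 in the 6 libraries where it exceeded wild type, with 40.7% to 63.4% of their summed RPKM, against 11.1% in wild type and 2.74% in the swi6 deletion library. PDE_00830 made up 16.0% of the sum in the flbC and 11.3% in the flbA deletion library, and at most 0.785% elsewhere.

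A wider list by gene ontology, added after the values were seen, held 28 genes for amino acid transport, of which 8 are also in the list by name. Besides the members, 14 of its 26 genes were lower and 6 higher in the flbA, 7 and 7 in the flbC, and 7 and 7 in the swi6 deletion library. The counts were 9 and 4 for flbB, 7 and 3 for flbE and 6 and 5 for wetA. They were 3 and 7 for stuA, 5 and 4 for the label flbD and 5 and 6 for the label abaA. The flbA counts of this list likewise depend on scaling. Unlike the list by name, this wider list thus held lower genes in all 9 libraries. So did all genes tested, of which 8.85% (flbC) to 37.4% (flbA) were lower and 9.80% (flbA) to 15.2% (label abaA) higher.

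**Figure D3:**
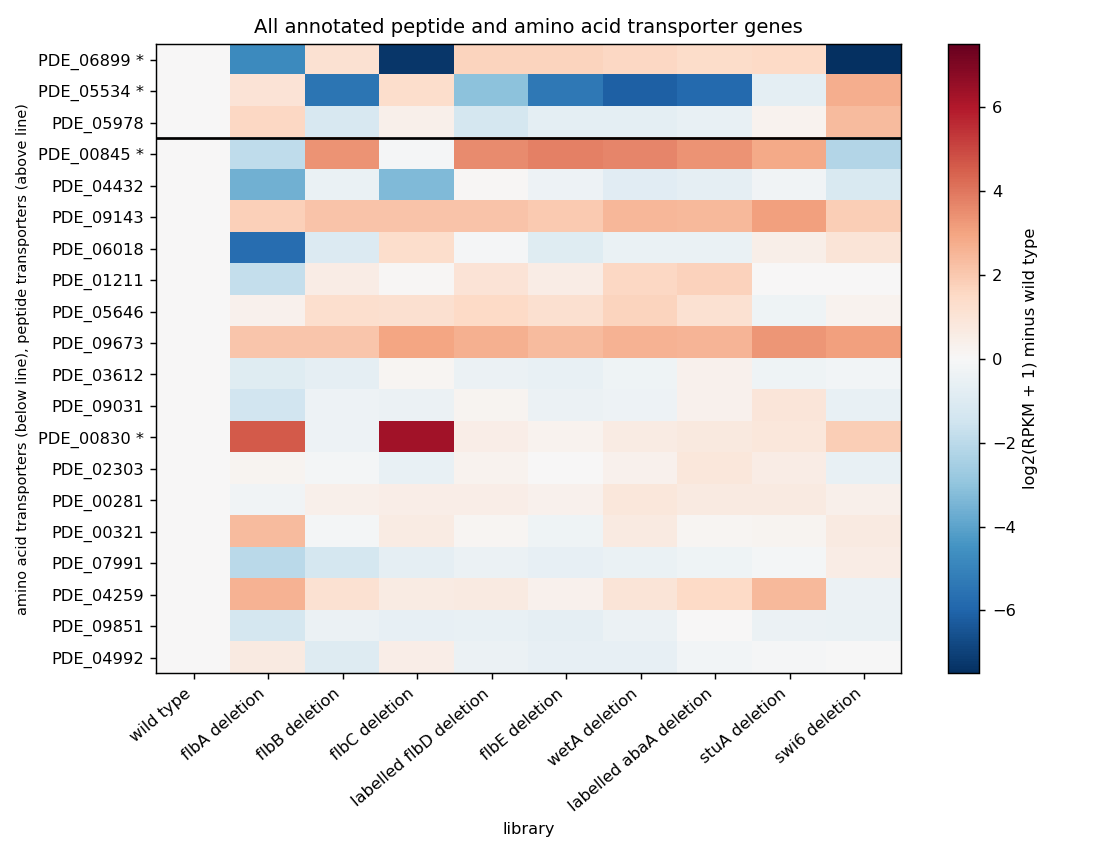
Difference from wild type in log2(RPKM + 1) (colour) for the 3 peptide transporters (above the line) and 17 amino acid transporters (below), each sorted by mean level, in the 10 libraries (columns). Asterisks mark the 4 genes described here. PDE_06899 and PDE_05534 carry opposite signs in all 9 columns of deletion libraries, most weakly for PDE_05534 in the stuA deletion library (1.49 for PDE_06899 and -0.74 for PDE_05534). Both genes were chosen on such differences and the columns share the wild-type library, so nothing is read from the signs.

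Genes that supply or use peptides and amino acids were described from lists by name. Of 29 peptidases, 11 were lower and 2 higher in the flbA, 14 and 1 in the flbB, 5 and 4 in the flbC, 13 and 2 in the flbE, 14 and 3 in the wetA, 6 and 0 in the stuA and 6 and 2 in the swi6 deletion library. The label flbD had 8 and 1, and the label abaA 10 and 2. For flbA the split depends on scaling, with 5 lower and 7 higher under median-of-ratios and 6 and 6 under TMM. The list includes intracellular enzymes such as methionyl aminopeptidases. The most abundant peptidase, cerevisin (PDE_09396), a vacuolar serine protease in budding yeast, ranged from 679 to 2026 RPKM and was never 2-fold from wild type. A carboxypeptidase named cathepsin A (PDE_08101) ranged from 217 to 664 RPKM, likewise within 2-fold. The third, an aminopeptidase (PDE_02146), which removes residues from the amino end of peptides, stood at 152 RPKM in wild type and between 319 and 635 RPKM in the flbB, flbE and wetA deletion libraries and those labelled flbD and abaA deletion. It had 113 RPKM in the stuA, and 8.51, 11.9 and 10.1 RPKM in the flbA, flbC and swi6 deletion libraries.

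Inorganic nitrogen, urea and purine uptake kept 7 of 8 listed genes, of which 5 were higher and 1 lower in the flbA, 4 and 1 in the flbC, and 1 and 0 in the swi6 deletion library. In the other 6 libraries 2 to 4 were higher and none lower. Of all genes tested, 9.80% were higher and 37.4% lower in flbA, 14.6% and 8.85% in flbC, and 11.0% and 11.9% in swi6. In the other 6 libraries 10.9% to 15.2% of all genes were higher and 12.3% to 23.0% lower. The flbA counts of this list depend on scaling. A xanthine/uracil permease (PDE_00604) stood at 48.6 RPKM in wild type, at 20.1 and 21.8 RPKM in flbA and flbC, at 74.4 RPKM in swi6, and at 159 to 324 RPKM in the 6 libraries high for PDE_06899. Allantoinase (PDE_04944), which breaks down purine-derived allantoin, was at 9.01 RPKM in wild type and at 14.9 to 122 RPKM in the deletion libraries. Nitrite reductase (PDE_00370) had 418 RPKM in the flbA deletion library and at most 11.6 RPKM elsewhere.

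Among 8 genes matched for nitrogen assimilation, 3 of which are folylpolyglutamate synthases caught by the pattern, 2 were lower and 3 higher in the flbA, 0 and 3 in the flbC, and 1 and 2 in the swi6 deletion library. The counts elsewhere were 0 to 2 lower and 1 to 3 higher. Of all genes tested, 8.85% (flbC) to 37.4% (flbA) were lower and 9.80% (flbA) to 15.2% (label abaA) higher. The flbA counts of this list, too, depend on scaling. Glutamine synthetase PDE_08346, which fixes ammonium into glutamine, was at 263 RPKM in wild type and at 531 to 983 RPKM in all 9 deletion libraries. A second glutamine synthetase (PDE_04219) was at 59.7 RPKM in wild type, at 27.1 RPKM with flbA deleted and at 112 to 264 RPKM in the other deletion libraries. Glutamate dehydrogenase PDE_06171 ranged from 184 RPKM in the flbA to 1634 RPKM in the wetA deletion library.

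The nitrogen regulators named in the annotation were 2 GATA-binding proteins, of the family that holds the nitrogen regulator AreA of Aspergillus. PDE_03334 had 39.5 to 71.0 RPKM and PDE_08667 17.2 to 57.5 RPKM. Just 1 call was made, PDE_08667 lower in the flbA deletion library, and it depends on scaling. Of 34 genes matched for amino acid breakdown, which include aminotransferases of synthesis, 16 were lower and 4 higher in the flbA, 1 and 10 in the flbC, and 5 and 8 in the swi6 deletion library. The rest had 6 to 12 lower and 1 to 8 higher. Of all genes tested, 37.4% were lower and 9.80% higher in flbA, 8.85% and 14.6% in flbC, and 11.9% and 11.0% in swi6. In the rest 12.3% to 23.0% were lower and 10.9% to 15.2% higher. The flbA counts of amino acid breakdown depend on scaling. Over all genes, 3420 lower and 895 higher there became 2103 and 1867 with median-of-ratios scaling. Of the hydroxyphenylpyruvate dioxygenases, which act in tyrosine breakdown, PDE_09761 reached 6029.8 RPKM with swi6 deleted, against 883 RPKM in wild type, 568 RPKM with flbC deleted and 3.42 to 27.1 RPKM in the other 7. PDE_08904 reached 2781 RPKM with flbC deleted, against 278 RPKM in wild type, 141 RPKM with swi6 deleted and 6.95 RPKM with flbA deleted. It had 398 to 853 RPKM in the remaining deletion libraries, and 4 deletion libraries in all were at least 2-fold higher. A cytoplasmic aspartate aminotransferase (PDE_03723) ranged from 137 RPKM in the flbA to 722 RPKM in the stuA deletion library.

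Mycelia can hold conidiating cells, so conidiation markers were read beside the transporters. Of 5 matched genes, 4 passed the filter, and each of the 4 was at least 2-fold below wild type in all 9 deletion libraries. Of all genes tested, 8.85% (flbC) to 37.4% (flbA) were lower in those libraries. The summed level of the 5 was 2182 RPKM in wild type, 195 to 365 RPKM in the flbB, flbC, flbE and wetA deletion libraries and those labelled flbD and abaA deletion, 56.6 RPKM in the swi6, 4.52 RPKM with stuA deleted and 0.249 RPKM with flbA deleted. The flbA deletion library had 0 reads for 4 of the 5, with 1 read for BrlA (PDE_00087), and the scytalone dehydratase PDE_09236 had 0 reads there, in the wetA and stuA deletion libraries and in those labelled flbD and abaA deletion. The stuA deletion library, with markers near 0, had 1852 RPKM of PDE_06899, and the flbC deletion library, with 365 RPKM of markers, had 3.15 RPKM. The flbA deletion library, with 0.249 RPKM of markers, had 23.1 RPKM of PDE_06899, and that of swi6, with 56.6 RPKM of markers, had 2.69 RPKM. The part of conidiating cells in the transporter levels was not tested.

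Genes of like pattern were ranked by the root mean square difference between log2(RPKM + 1) profiles over the 10 libraries, each centred on its own mean. Closest to PDE_06899 were PDE_03475 (distance 1.03), PDE_03478 (1.08) and PDE_03172 (1.18), none with an informative name. PDE_03475 ranged from 1.31 RPKM in the swi6 to 4325 RPKM in the flbE deletion library and, like PDE_06899, was low in the flbA, flbC and swi6 deletion libraries (7.71, 5.11 and 1.31 RPKM). The closest named genes were the aminopeptidase PDE_02146 (1.69, place 5) and PDE_00845 (1.97, place 7). PDE_06899 and PDE_05534 were 6.57 apart, and 9123 of the genes tested lay closer to PDE_06899 than PDE_05534 did. As the members were chosen on their levels in these libraries, nothing is read from the distances between them.

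Closest to PDE_05534 were the unnamed PDE_03823 (1.08), PDE_09261 (1.09), named as a lactate transporter of the SHS family, and the unnamed PDE_09377 (1.17). PDE_09261 was highest in the swi6 (477 RPKM) and flbC deletion libraries, with 38.2 RPKM in wild type, 27.2 RPKM in the flbA and 25.8 RPKM in the stuA deletion library, and 0.457 to 1.22 RPKM in the other 5. PDE_09377 reached 14938 RPKM in the swi6 deletion library and was as low as 4.69 RPKM in the library labelled abaA deletion. Next by name were a beta-1,3-glucanosyltransglycosylase of wall assembly (PDE_06951, 1.29) and a SUN domain protein (PDE_00248, 1.57). Without the flbA deletion library, 1 of the 3 closest genes was retained for PDE_05534, against all 3 for PDE_06899.

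Closest to PDE_00845 were the unnamed PDE_01383 (0.89) and PDE_07650 (0.93) and again the aminopeptidase PDE_02146 (0.93). Next by name were a carboxypeptidase (PDE_00005, 1.02), which trims peptides from the carboxyl end, and a methionine-R-sulfoxide reductase (PDE_04638, 1.06). PDE_00005 was at 22.6 RPKM in wild type, with 0.621, 3.32 and 4.47 RPKM in the flbA, flbC and swi6 deletion libraries, and 25.9 to 87.6 RPKM in the other 6. Closest to PDE_00830 were the tripeptidyl peptidase PDE_01983 (0.82), which cuts tripeptides from protein ends, and the unnamed PDE_01971 (0.84) and PDE_05373 (0.93). PDE_01983 was likewise highest in the flbC deletion library, with 15.9 RPKM in that of flbA, 7.69 RPKM in that of swi6 and 2.52 RPKM in that of stuA, beside a like level in wild type, and at most 0.590 RPKM in the other 5 deletion libraries. Next by name were an acid phosphatase (PDE_03399, place 5) and a carboxypeptidase D (PDE_05305, 1.02), the latter with 120.2 RPKM in the flbA, 69.3 RPKM in the flbC and 3.73 to 14.3 RPKM in the other 8 libraries. Without the flbA deletion library, 1 of the 3 closest was retained for PDE_00845 and 0 of 3 for PDE_00830, so those names depend on that library. Profiles of different genes share the same 10 libraries, and these distances carry no test.

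**Figure D4:**
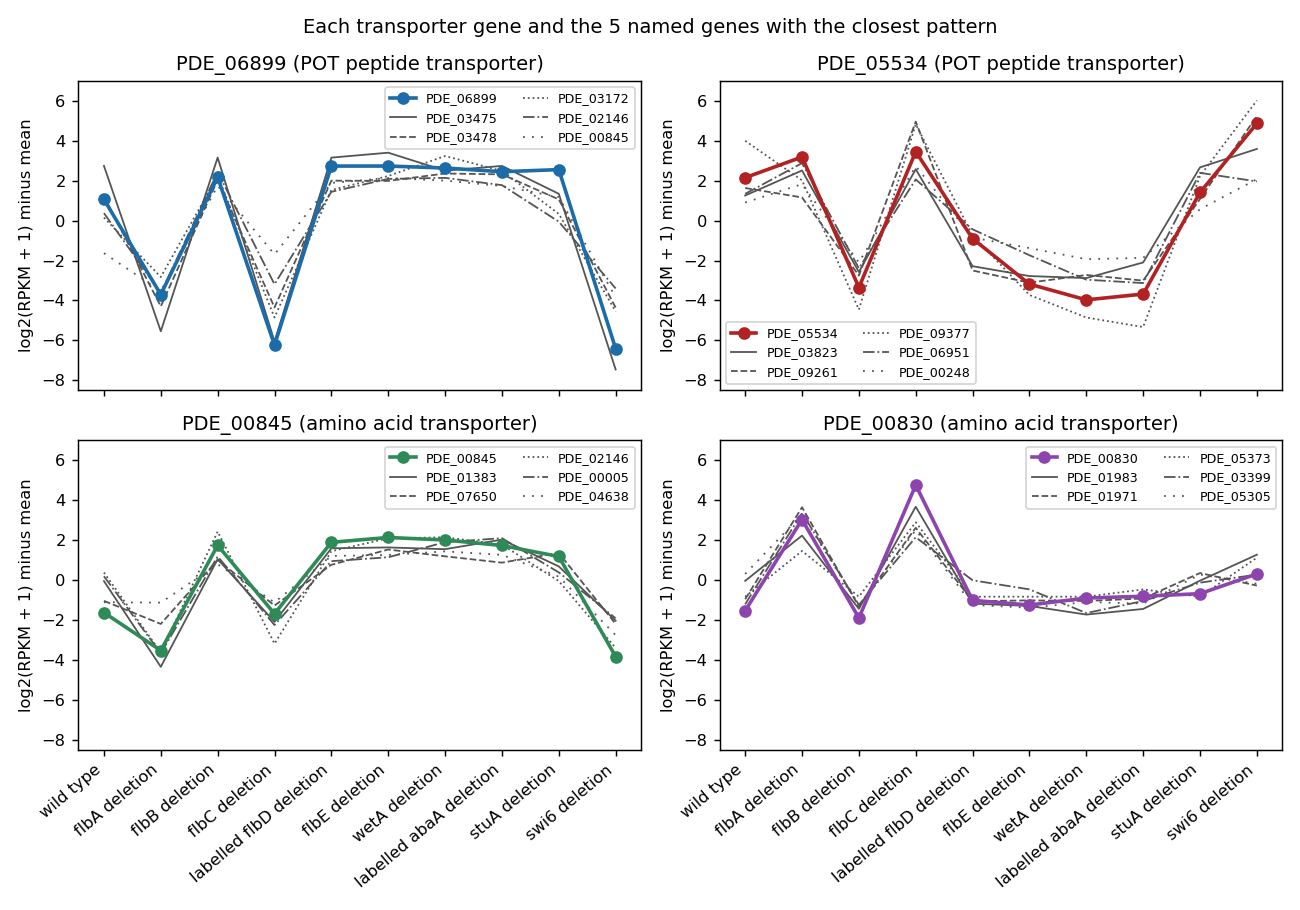
Level of each transporter gene (thick line) and of 5 genes of like pattern (thin lines) as log2(RPKM + 1) minus the gene's own mean (y axis) in the 10 libraries (x axis). The 5 are the 3 closest of all genes tested and the 2 next with an informative name. The lines join libraries of different strains for legibility and show no order. PDE_06899 is at its lowest (2.69 RPKM) in the swi6 deletion library, and PDE_05534 is at its highest there (827 RPKM).

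By locus number, PDE_00830 and PDE_00845 lie in one stretch of the numbering and the POT genes lie elsewhere. Genes within 5 locus numbers were compared with each member. None of the 10 around PDE_06899 exceeded 94.2 RPKM in any library. The immediate neighbours PDE_06898 and PDE_06900 ranged from 0 to 9.75 RPKM and from 0.510 to 12.2 RPKM, and PDE_06898 was the closest in pattern of the 10 (distance 2.70). Next to PDE_05534, PDE_05533 had at most 3.26 RPKM, in the flbC deletion library, and PDE_05535 ran from 60.2 RPKM in wild type down to 1.02 RPKM in the flbA deletion library, where PDE_05534 was above wild type. The most abundant of these 10, the unnamed PDE_05532, picked after its values were seen, ran from 10.1 to 2043 RPKM at a distance of 4.29. Named neighbours were a phosphoheptulonate synthase of aromatic amino acid synthesis (PDE_05529, 61.5 to 139.8 RPKM) and a lysophospholipase (PDE_05537, 133 to 1669.8 RPKM).

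Around PDE_00845, the adjacent PDE_00844 had 41.2 to 86.6 RPKM and PDE_00846 at most 5.63 RPKM. The named neighbours were a cell division control protein 6 (PDE_00841), a kinase of the MST4 family (PDE_00843), an LSm5 splicing protein (PDE_00848) and peroxin-10 (PDE_00850), whose highest levels were 15.7, 43.0, 140.9 and 31.5 RPKM. The closest pattern among these 10 was 1.75 away (PDE_00847, 1.98 to 9.18 RPKM). Around PDE_00830, the immediate neighbours PDE_00829 and PDE_00831 had 0 to 3.73 RPKM and 7.11 to 76.2 RPKM, and the named PDE_00825 (mitochondrial ribosomal protein S29) and PDE_00827 (rhamnono-lactonase) reached 88.6 and 1.60 RPKM. PDE_00828, unnamed but given amino acid transmembrane transport by gene ontology, was the closest of the 10 in pattern (distance 1.31). It is described after its values were seen. Its levels were 23.6 RPKM with flbC deleted and 10.3 RPKM with swi6 deleted, 2.32 RPKM in wild type, 2.56 RPKM in the flbA and 1.44 RPKM in the stuA deletion library, and at most 0.299 RPKM in the other 5. PDE_00828 thus shared with PDE_00830 the high level in the flbC deletion library and not that in the flbA deletion library.

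**Figure D5:**
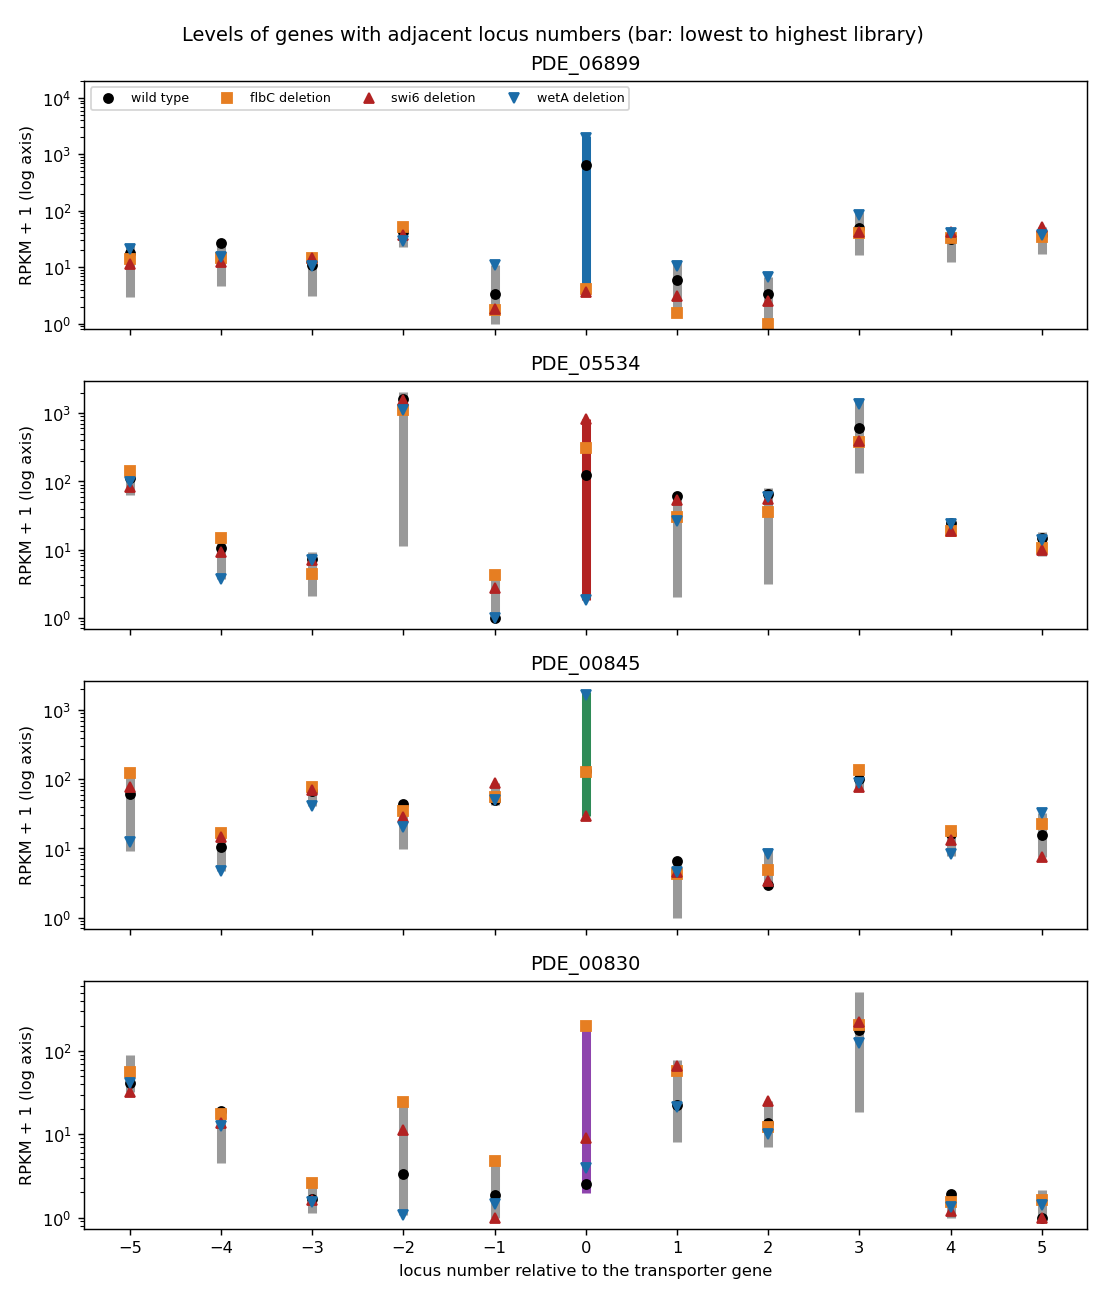
Level (y axis, RPKM + 1, log scale) of the genes within 5 locus numbers (x axis) of each transporter gene, which stands at 0. Bars run from the lowest to the highest of the 10 libraries and symbols give wild type and the flbC, swi6 and wetA deletion libraries. The bars of PDE_06899 (2.69 to 2098 RPKM) and PDE_00845 (28.1 to 1825.5 RPKM) reach above those of all 10 neighbours of each.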

How the data were processed

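The deposited table gives, per the file headers, the count of uniquely placed reads, the RPKM and the percent of each gene covered by reads, for 9859 genes in 10 libraries. The RPKM values are the authors' and equal those recomputed from count, length and header total within a relative gap of 2.57e-08. Percent coverage was deposited by the authors and printed as given. CASAVA 1.8 is named in the submitters' processing notes. No aligner, build or annotation is named in the labels or headers. A dash was read as 0.

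The members and lists were chosen with earlier results of these data known. Each fold divides 2 RPKM values, and its 95% interval is exact and conditional on the summed reads (Clopper-Pearson). Levels have exact Poisson 95% intervals, covering counting error only since no molecular identifiers are recorded. A floor of 3 reads on 1 kilobase is worth 0.395 to 0.967 RPKM. Differences and calls used log2(RPKM + 1), which understates changes of low genes, at a mean of at least 1 RPKM, which kept 9134 genes and removed 725. With 1 library per genotype no test was made.

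Text patterns defined the lists, searched in product and KEGG names. Named genes were the 4 members, the 3 closest in pattern and the 2 next with an informative name, the 3 most abundant of each list, conidiation markers, and adjacent or named genes within 5 locus numbers. Alternatives were pseudocounts of 0.1 and 5, no filter, a filter at 5 RPKM, median-of-ratios and TMM scaling (edgeR 4.0.16, R 4.3.3), totals without each library's most abundant gene, and calls by interval. The step that makes the 2-fold calls was checked on simulated counts (Python 3.11.15, scipy 1.17.1). The reference gene table matched 0 of the locus numbers, so coordinates and sequences were not used here.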

Additional observations from a re-analysis of the deposited data

How the results depend on the processing

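No difference of a member from wild type that was at least 2-fold changed direction under any of the 8 alternatives tried, of which the filters and the calls by interval cannot move a member's value. Under the other 5 (2 pseudocounts and 3 scalings), 73 of 180 recomputed differences moved beyond the counting interval, 49 of them under median-of-ratios or TMM scaling. Against wild type, scaling moved values by over 1.5 times for the flbA deletion library alone, by up to 1.65 times for each member, and PDE_06899 was then lower by 17.2-fold (median-of-ratios) or 18.7-fold (TMM) in place of 28.5-fold. The members' counts of libraries 2-fold from wild type moved by more than 1.5 times in 2 cases. PDE_00830 was higher in 5 libraries in place of 3 at a pseudocount of 0.1, which adds the stuA library and the library labelled abaA deletion, and PDE_05534 was lower in 3 in place of 5 when the libraries labelled flbD and abaA deletion were left out, an alternative chosen after seeing the data. By interval, PDE_05534 was higher in 2 libraries, without flbA.

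Counts over all genes moved more. In the flbA deletion library, 3420 lower and 895 higher genes became 2257 and 1654 with TMM and 2103 and 1867 with median-of-ratios scaling, and the median difference moved from -0.64 to -0.09 and 0.01 (-0.32 without the most abundant gene). Lower genes became 1290 (TMM), 1161 (median-of-ratios) and 1360 (pseudocount 5) from 2103 for flbB, and 1140, 1043 and 1193 from 1940 for flbE. With a pseudocount of 5 they became 717 from 1157 for the label flbD and 720 from 1090 for swi6. Calls by interval gave fewer lower genes for flbA (2218), flbB (1303), flbC (508 from 808), the label flbD (702), flbE (1154), stuA (869 from 1334) and swi6 (678), and fewer higher genes for flbB (725 from 1099), flbC (858 from 1337) and the label abaA (884 from 1388). Median-of-ratios scaling moved the share of higher among called genes by over 10 percentage points, from 20.7% to 47.0% for flbA, 34.3% to 57.9% for flbB, 33.9% to 58.1% for flbE, 48.1% to 59.5% for the label flbD, 39.7% to 55.2% for wetA and 47.9% to 58.8% for swi6. No paired analysis was possible because each genotype has 1 library. At this depth the lowest levels of PDE_05534 (10 to 29 reads) and PDE_00830 (11 to 42 reads) could be ordered only in part.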
